A study of Bos taurus with 8 samples.

Results

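The genes described here code for cargo of the secondary (specific) and gelatinase granules of the neutrophil, together with PADI4, an enzyme linked to neutrophil extracellular traps. They are LTF, PGLYRP1, MMP9, TCN1, CHI3L1 and PADI4. Every non-control probe whose transcript accession belonged to one of these 6 genes was taken, which gave 18 probes of the 43653 on the array, and 6 of the 12639 gene symbols that could be assigned. LTF had 5 probes, MMP9, CHI3L1 and PADI4 had 3 each, and PGLYRP1 and TCN1 had 2 each. The genes were selected on measured values of the same comparison that is described below, so their differences between the time points are given as a description with no test.

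The samples were neutrophils isolated from jugular vein blood of female periparturient Holstein Friesian dairy cows, at 2 time points around calving. The C+7 group was sampled 7 days after calving and had 4 arrays, and the C-14 group was sampled 14 days before the expected calving and had 4 arrays. The series text names 3 cows, and the labels do not say which cow an array came from, so some arrays of a time point share an animal or are not 1 sample per animal, and the spread between arrays may be technical. RNA was extracted with TRIzol, labelled with the dye Cy3, and read on bovine Agilent arrays, 1 colour per array.

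Neutrophils fill their granules in the bone marrow in sequence: azurophil granules are made first, specific granules follow, and gelatinase granules and secretory vesicles come last. Transcripts of specific granule cargo are made mainly at the myelocyte and metamyelocyte stages and decline before the cell enters the blood. On activation the gelatinase granules are released more readily than the specific granules, and around calving the dairy cow is known for altered neutrophil function.

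The arrays differed in how much they detected. Feature Extraction, the scanner software, marks a spot as well above background from its signal and the local background. Over all probes, 387 to 2746 were well above background on the C+7 arrays and 761 to 4486 on the C-14 arrays. Replicate 4 was the dimmest array at both time points, with 387 probes in C+7 and 761 in C-14, and the other 6 arrays each had over 2000. Each slide carried the arrays of 1 time point only, so an effect of the slide and one of the time point cannot be told apart. Values are the background-subtracted intensity of the spot unless another scale is named, and values near 0 or below it are noise around the background.

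On the 6 brighter arrays, at least 1 probe each of LTF, PGLYRP1 and MMP9 gave signal on all 3 arrays after calving and on none before it. A TCN1 probe gave signal on all 3 arrays after calving and on 1 before it. Another MMP9 probe, A_73_119412, went the other way, with signal on C-14 replicate 1 alone. LTF, PGLYRP1, MMP9 and TCN1 each had at least 1 probe well above background on C+7 replicates 1, 2 and 3. CHI3L1 ran the other way in its subtracted intensity, and PADI4 was close to the detection limit at both time points. Of the 18 probes, 6, 7, 7 and 0 were well above background on C+7 replicates 1 to 4, against 2, 2, 3 and 0 on C-14 replicates 1 to 4. On replicate 4 of either time point none of the 18 was detected, so what follows rests on 3 arrays of each time point.

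LTF codes for lactoferrin, the iron-binding protein of the specific granule. Its brightest probe, A_73_116655, had subtracted intensities of 187, 284, 409 and 2.38 on C+7 replicates 1 to 4, against -2.0, -0.278, -3.57 and 3.03 on C-14 replicates 1 to 4. The first 3 C+7 arrays lay far above every C-14 array, while C+7 replicate 4 lay within the C-14 range. The probe A_73_P467448 gave 51.3, 158, 108 and -2.35 in C+7, against 3.09, -1.44, 5.42 and 1.51 in C-14. It split the arrays in the same way. A probe of the gene, A_73_P379426, was well above background on C+7 replicate 3 alone, at 43.4, with -0.664, 5.32 and 10.9 on C+7 replicates 1, 2 and 4 and values from -3.63 to 9.20 in C-14. The remaining 2 LTF probes were dark, that is, never well above background, with -0.484 to 9.18 in C+7 and -9.30 to 12 in C-14. Which of the 5 probes measure the LTF transcript best was not tested.

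PGLYRP1 codes for a peptidoglycan-binding, bactericidal protein of the specific granule. Its probe A_73_121141 had 82.0, 218, 172 and -4.53 on C+7 replicates 1 to 4, against -1.41, 14.2, 4.94 and 2.04 on C-14 replicates 1 to 4. None of the C-14 values was well above background, and the first 3 C+7 values all were. Its other probe stayed between -5.40 and 5.50 in C+7 and between -8.88 and 9.01 in C-14, dark on all 8 arrays.

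TCN1 codes for transcobalamin 1, also called haptocorrin, a vitamin B12-binding protein of the specific granule. Its probe A_73_P076866 gave 104, 110, 56.5 and -1.04 in C+7, against -1.35, -7.72, 46.0 and 3.59 in C-14. Here 1 array before calving, C-14 replicate 3, was well above background too, and its value lay below all of the first 3 C+7 values. The other TCN1 probe was dark on every array.

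MMP9 codes for gelatinase B, the matrix-degrading protease after which gelatinase granules are named. Its probe A_73_P101206 gave 81.9, 182, 112 and -0.404 in C+7, against -3.47, -0.462, 3.81 and 4.13 in C-14. As for LTF and PGLYRP1, the 3 brighter C+7 arrays stood clear of all 4 C-14 arrays. The probe A_73_119412 did the reverse on a single array: it was well above background on C-14 replicate 1 alone, at 34.5, while it had 0.0585 to 4.17 in C+7. On C-14 replicate 1 the brightest of 153 negative control spots read 35.9, so that signal lay within the range of the controls, where 1 control was as bright. The last MMP9 probe was dark on all 8 arrays.

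CHI3L1 codes for a chitinase-like protein, also known as YKL-40, which human neutrophils store in specific granules. Its probe A_73_P045236 gave 13.5, 30.1, 26.0 and -6.27 in C+7, of which only the value of replicate 2 was well above background. On that array 1 of 153 negative control spots was as bright, at 31.4, so this signal too lay within the range of the controls. In C-14 it gave 93.5, 59.4, 62.5 and 8.77, of which the first 3 were well above background. Before any scaling, the first 3 C-14 arrays were thus all brighter than every C+7 array. The other 2 CHI3L1 probes were dark throughout.

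PADI4 codes for a peptidylarginine deiminase that converts arginine in histones to citrulline, a step in the formation of neutrophil extracellular traps. Its probe A_73_P095646 gave 23.6, 51.5, 55.2 and 4.42 in C+7, against 15.4, 31.2, 42.4 and 1.36 in C-14. The ranges of the time points overlapped, with 3 C+7 and 2 C-14 arrays well above background. Its other 2 probes lay between -4.83 and -0.517 in C+7 and between -4.89 and 3.92 in C-14.

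**Figure D1:**
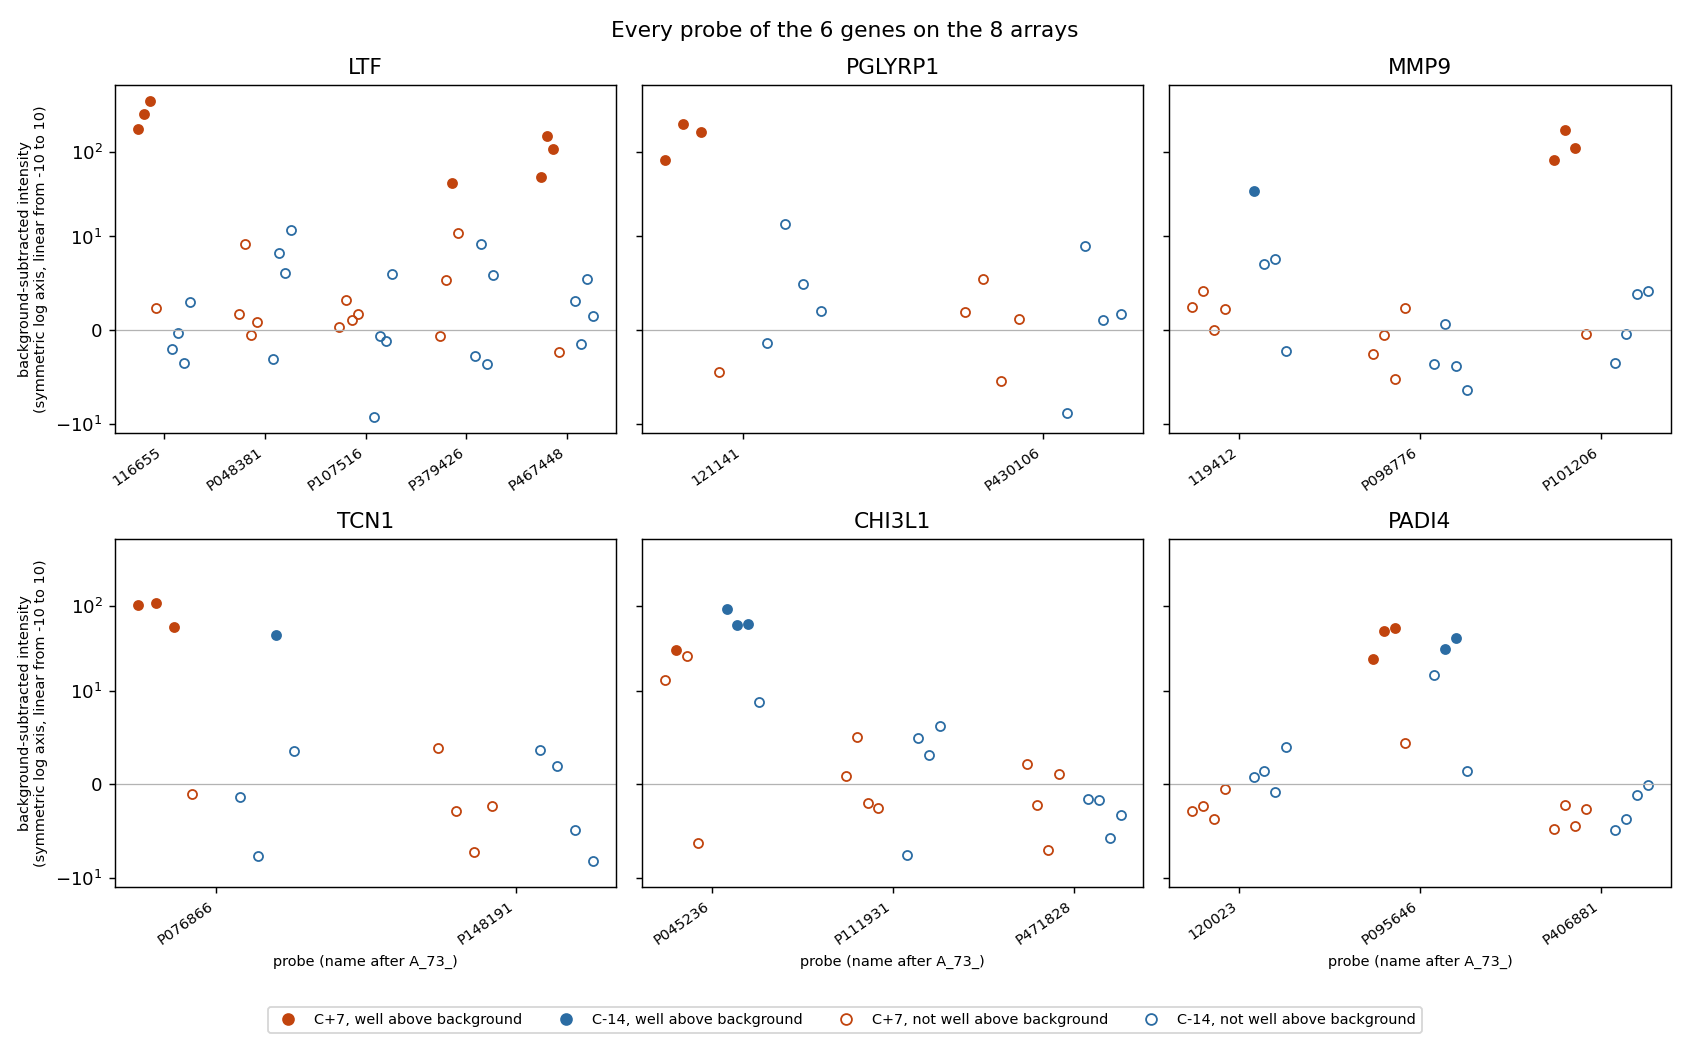
Background-subtracted intensity (symmetric log axis) of each of the 18 probes, with 1 point per array, C+7 left of C-14 for each probe, filled where the software marked the spot well above background. LTF, PGLYRP1, MMP9 and TCN1 each have 3 filled C+7 points on at least 1 probe, CHI3L1 has 3 filled C-14 points, and 9 of the 18 probes have no filled point.

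Across the 6 genes, 9 of the 18 probes were never well above background and 2 were so on 1 array only. The 72 spots of the 9 dark probes ranged from -7.25 to 9.18 in C+7 and from -9.30 to 12 in C-14. In 5 of the 6 genes the brightest probe was the only one well above background on more than 1 array, and LTF was the exception with 2 such probes. Of the 18 probes, 4 were well above background on C+7 replicates 1 to 3 and on no C-14 array: both of these LTF probes, PGLYRP1 A_73_121141 and MMP9 A_73_P101206. Over all 43653 probes, 21 had that pattern, or 0.0481%, and 271, or 0.621%, had the reverse one, which 0 of the 18 shared. Since the genes were selected on this contrast, nothing is read from their count.

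The rank of a probe within its own array needs no scaling between arrays. LTF A_73_116655 stood at the 99.0, 99.0 and 99.4 percentile of all probes on C+7 replicates 1 to 3, against 34.0, 45.9 and 18.9 on C-14 replicates 1 to 3. On replicate 4 it stood at 67.7 in C+7 and 75.3 in C-14. PGLYRP1 A_73_121141 stood at 98.3, 98.8 and 98.8 on the first 3 C+7 arrays, and at 38.3, 90.7 and 76.6 on the first 3 C-14 arrays. MMP9 A_73_P101206 stood at 98.3, 98.7 and 98.3, against 23.7, 44.7 and 71.8. For these genes each of the 3 brighter C+7 arrays ranked the probe higher than any of the 4 C-14 arrays did. TCN1 A_73_P076866 stood at 98.5, 98.2 and 97.1 in C+7 and at 38.7, 8.27 and 94.3 in C-14, in the same order. CHI3L1 A_73_P045236 stood at 93.3, 95.2 and 93.6 in C+7 and at 97.3, 97.4 and 95.4 in C-14. On these arrays its C-14 ranks were all higher, though the nearest ranks were 95.4 in C-14 and 95.2 in C+7. PADI4 A_73_P095646 stood at 95.8, 96.8 and 97.0 in C+7 and at 87.0, 95.6 and 94.0 in C-14, where the nearest ranks of the time points were 95.8 in C+7 and 95.6 in C-14.

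**Figure D2:**
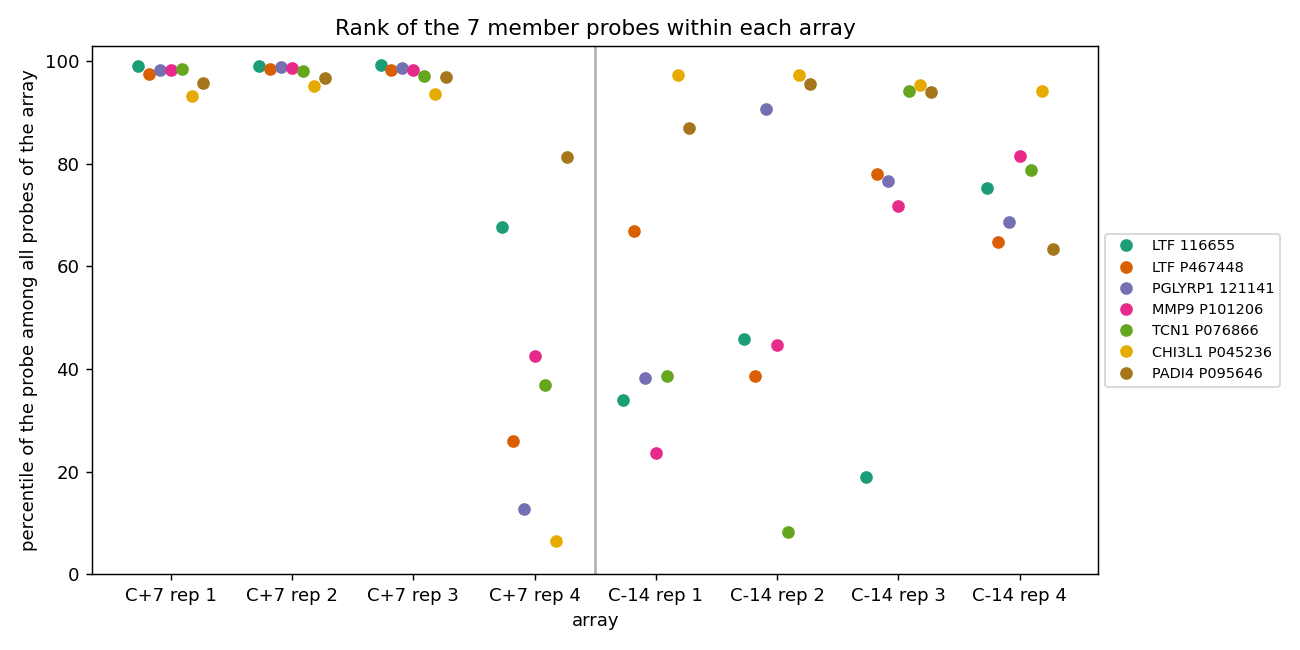
Percentile of 7 probes of the 6 genes among all probes of the array, with the 4 C+7 arrays left of the 4 C-14 arrays. LTF, PGLYRP1, MMP9 and TCN1 sit above the 97 mark on C+7 replicates 1 to 3, and the ranks scatter on replicate 4 of both time points, where none of these probes was detected.

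To compare levels between arrays, the subtracted intensity of the 6 brighter arrays was divided by a 75th percentile, taken on each array from the 1091 probes that all 6 arrays detected. Values below a common floor, the highest of the arrays' detection limits, were raised to it, which is -3.54 on the scaled log2 axis. A probe entered the fit where all 3 arrays of at least 1 time point detected it well above background. This left 2204 probes, among them 7 of the 18, and these 7 passed through the time point in which they were bright. The other 11 were not tested. In limma with Benjamini-Hochberg adjustment over the 2204 probes, 113 were called at an adjusted p under 0.05, or 5.13%, of which 42 (1.91%) were higher in C+7 and 71 (3.22%) lower. The median difference over all tested probes was -0.06 on the log2 scale. With the percentile taken over all probes the split became 17 higher and 99 lower with a median of -0.58, and with a normexp background correction it became 68 higher and 4 lower with a median of 0.68. These percentages are the background for the other granule genes and the markers below. No call is given for the 7 probes of the 6 genes, because the genes were selected on this contrast and the floor sets the spread of one time point to 0 for 6 of them.

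LTF A_73_116655 averaged -0.16 ± 0.51 in C+7 on the scaled log2 axis and lay at the floor of -3.54 on all 3 C-14 arrays (SD, n = 3 each), a difference of 3.37 with a standard error of 0.28. This is at least 10.4-fold higher in C+7, a lower limit because the C-14 level is known only to lie under the floor. The lower limits from this fit hold for its scaling and background correction only. The log2 difference of this probe was 3.12 with normexp and 6.61 with the processed intensity. LTF A_73_P467448 averaged -1.71 ± 0.62 in C+7 and lay at the floor in C-14, at least 3.55-fold higher. The probes of this gene therefore differed in the size of the lower limit, with a log2 difference of 3.37 on one and 1.83 on the other.

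PGLYRP1 averaged -1.10 ± 0.54 in C+7 with all C-14 arrays at the floor, at least 5.40-fold higher. MMP9 averaged -1.40 ± 0.36 in C+7, again with all C-14 arrays at the floor, at least 4.40-fold higher. For these probes the C-14 spread of 0 was set by the floor, so the standard errors of 0.29 and 0.21 rest on the C+7 arrays. TCN1 averaged -1.86 ± 0.54 in C+7, and its log2 difference was 1.68 with a standard error of 0.29. The C-14 replicate 3 signal of TCN1 lay under the common floor of 62.5 for that array. With each array's own detection limit as the floor the TCN1 difference was 2.26.

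CHI3L1 lay at the floor on all 3 C+7 arrays and averaged -2.87 ± 0.58 in C-14, a log2 difference of -0.67 with a standard error of 0.31. Its groups overlapped, because C-14 replicate 3, at 62.5, fell just under the floor of that array, and without that array the difference was -1.0. Its size and sign also depended on the values used: it was -1.38 with the percentile taken over all probes, 0.55 with normexp and 0.12 in the authors' series matrix. PADI4 averaged -2.94 ± 0.54 in C+7 and -3.51 ± 0.05 in C-14, a difference of 0.56 with a standard error of 0.29, with overlapping groups.

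**Figure D3:**
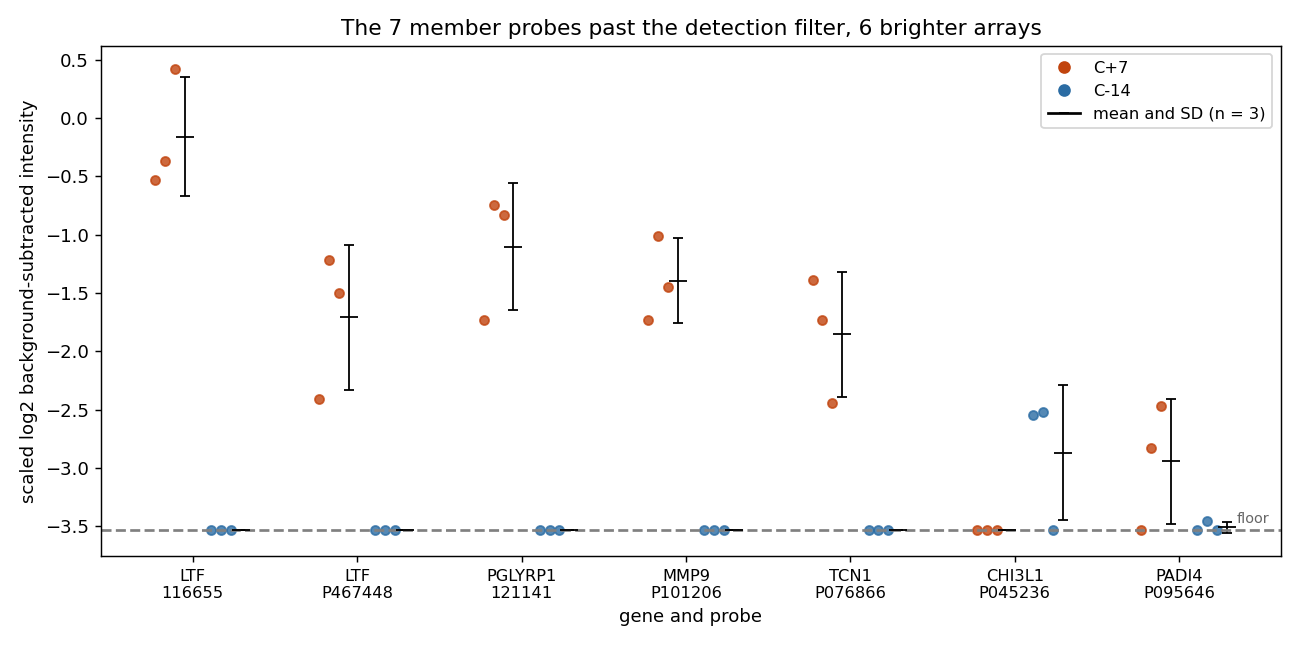
Scaled log2 intensity of the 7 probes that passed the detection filter on the 6 brighter arrays, C+7 left of C-14, with the mean and SD of 3 arrays beside the points and the common floor as a dashed line. The C-14 points of LTF, PGLYRP1, MMP9 and TCN1 all lie on the floor at -3.54, as do the C+7 points of CHI3L1.

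When each of the 6 arrays was left out in turn, the log2 difference of LTF A_73_116655 stayed between 3.28 and 3.54. That of TCN1 ran from 1.43 to 2.17 and that of CHI3L1 from -1.0 to -0.53. The C-14 values of LTF A_73_116655 lay at the floor and the gene was selected on this contrast, so nothing is read from its range. In the fit of all 8 arrays none of the 18 probes passed the detection filter, and limma called 0 of 470 probes (0%), with 7 at an unadjusted p under 0.05. Weighting the arrays by their quality in that fit called 14.

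The processed intensity, the software's final value, equalled the subtracted intensity above the detection limit and was filled with a low positive value below it on 7 of the 8 arrays. On C-14 replicate 3 the software had applied a multiplicative surface correction with a root mean square of 1.83, and on the other 7 arrays it had applied none. On C-14 replicate 3 the 15 member probes that were not well above background had subtracted intensities from -5.73 to 7.60, but processed intensities from 1.82 to 753 with a median of 114, and 9 of them exceeded 50. On the other 7 arrays the 102 such spots had processed intensities from 3.68 to 26.0, and 0 exceeded 50. TCN1 A_73_P076866 on that array read 239 processed and 46.0 subtracted, and CHI3L1 A_73_P045236 read 41.6 processed and 62.5 subtracted. The scaled levels of the 6 genes above use the subtracted intensity, whereas the fit of 8 arrays used the processed intensity. The software's own error model gave the 27 member spots that were well above background an error of 3.38% to 20.6% of their processed value, with a median of 11.1%.

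**Figure D4:**
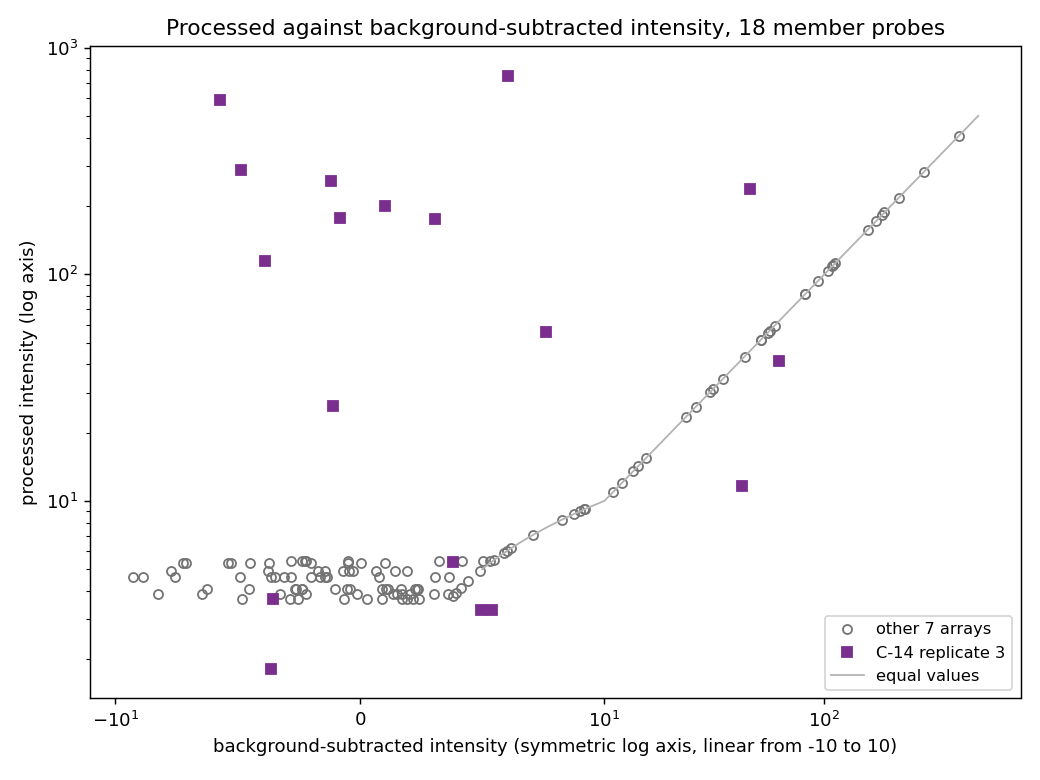
Processed intensity (log axis) against background-subtracted intensity (symmetric log axis) of the 18 probes, with squares for C-14 replicate 3, circles for the other 7 arrays and a line of equal values. The circles follow the line above the detection limit and level off below it, while the squares scatter from 1.82 to 753 at subtracted values near 0.

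Other granule genes were examined by list, on the same 6 arrays and in the same limma fit, in which 5.13% of all probes were called. Of 17 other specific granule genes, 13 had a probe and 2 were tested. HP, which codes for the haemoglobin-binding protein haptoglobin, rose, with 240, 435, 288 and 8.63 in C+7 against 15.3, 5.28, 46.9 and -4.77 in C-14, a log2 difference of 3.53 (SE 0.15; limma adjusted p = 0.00215). CATHL2, which codes for a cathelicidin antimicrobial peptide precursor, had a difference of 1.5 (SE 0.33; limma adjusted p = 0.0739) and was not called. For HP and CATHL2 all 3 C-14 arrays lay at the floor. HP and CATHL2 passed the detection filter through the C+7 arrays, and their C-14 spread of 0 was set by the floor. The standard errors and p-values therefore rest on the C+7 arrays and can be too small. CAMP, CATHL1, CATHL3, CATHL5, CRISP3, ORM1, SLPI and ARG1 were dark on all 8 arrays.

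Of 11 gelatinase granule and secretory vesicle genes, 7 had a probe and 1 was tested. This was ALPL, an alkaline phosphatase of the secretory vesicle membrane, which rose at least 8.96-fold (limma adjusted p = 0.0302). It had 128, 237, 462 and -2.65 in C+7 against 11, 1.23, 15.1 and 5.91 in C-14. The C-14 spread of 0 of ALPL was likewise set by the floor. Its p-value therefore rests on the C+7 arrays and can be too small. Leaving out 1 array ended the ALPL call in 5 of 6 cases, all but C+7 replicate 1, with the log2 difference between 2.87 and 3.27 in those 5, whereas HP remained called in all 6. Of 7 azurophil granule genes, 4 had a probe and 2 were tested, with 0 called. LYZ, which codes for lysozyme, had a difference of -0.35 (SE 0.17), and BPI, which codes for a protein that binds bacterial endotoxin, lay at the floor on 5 of the 6 arrays. MPO, the myeloperoxidase gene, was dark on all 8 arrays. The lists were drawn up with earlier results of these data known, so HP and ALPL are no independent evidence about the 6 genes.

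Of the other peptidylarginine deiminases, PADI1 alone had a probe and it was dark. Among binding partners and relatives of the cargo proteins, 1 probe was tested, that of TCN2, which codes for the vitamin B12 carrier of plasma, at 0.78 (SE 0.31) and not called. TIMP1, which codes for an inhibitor of matrix metalloproteinases, and TF, the transferrin gene, were dark. Among regulators of granulocyte development, CEBPE, a factor needed for specific granules in mouse and human, had a difference of -0.31 (SE 0.14), and CEBPA, which acts earlier in that lineage, had 0.93 (SE 0.49). Neither was called.

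Markers of cell types moved between the time points as well. Of 8 tested probes of neutrophil markers, 1 probe, of the calcium-binding protein gene S100A12, rose by 2.29 (SE 0.32; limma adjusted p = 0.0274), and the other S100A12 probe had 0.57. The summed scaled level of the neutrophil markers was 75.6 to 92.3 in C+7 and 16.6 to 30.6 in C-14, most of it from that S100A12 probe, which alone gave 69.4 to 85.8 in C+7 and 11.2 to 24.2 in C-14. Without it the sums were 6.22 to 7.49 in C+7 and 5.36 to 6.39 in C-14, which overlapped. The chemokine receptor gene CXCR1 had a difference of -1.25 (limma adjusted p = 0.058) and CXCR2 had -0.06. S100A9 had 0.71, with all 3 C-14 arrays at the floor, and the probes of ITGB2 had 1.17, -0.21 and -0.11. None of these was called. ITGAM and S100A8 were dark. On replicate 4, outside that fit, S100A12 A_73_P050466, the probe that rose, read 58.3 in C+7 and 223 in C-14. The other S100A12 probe, A_73_115208, read 108 in C+7 and 18.7 in C-14 there. The median difference of the 8 probes was 0.25, beside -0.06 over all 2204.

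Of 4 tested T cell probes 3 fell, both of CD247 and that of CD3E, genes of the signalling chains of the T cell receptor, and the summed level of the list was 1.28 to 1.49 in C+7 and 5.36 to 6.90 in C-14. The median difference of the 4 probes was -2.33. The natural killer marker GNLY fell by 1.67, and the sum of that list was 0 to 0.0843 in C+7 and 0.312 to 0.483 in C-14. CD3E and GNLY lay at the floor on all 3 C+7 arrays. Their C+7 spread of 0 was set by the floor, so these calls rest on the spread of the C-14 arrays. The p-values behind them can be too small. The monocyte marker CSF1R fell by 1.62, with sums of 0.195 to 0.253 in C+7 and 0.555 to 0.910 in C-14. ALOX15, the only tested marker of eosinophils, fell by 3.02 (SE 0.15; limma adjusted p = 0.00266), with sums of 0.139 to 0.153 in C+7 and 1.03 to 1.37 in C-14. The erythroid sum was 1.14 to 2.45 in C+7 and 0.232 to 1.15 in C-14, with HBA not called, and of 3 tested B cell probes 0 were called. Markers of immature granulocytes summed to 0 in C+7 and 0.137 to 0.293 in C-14, with 0 of 2 tested probes called, and the platelet markers PF4 and ITGA2B were dark. Of the 7 marker probes called, that of ALOX15 remained called when any 1 of the 6 arrays was left out. The S100A12 call was lost in 5 of these 6 omissions (all but C-14 replicate 2), that of GNLY in 5 (all but C-14 replicate 3), those of CSF1R and both CD247 probes in 4 (C-14 replicate 3 and each C+7 array) and that of CD3E in 2 (C+7 replicates 2 and 3). The part of these shifts in the values of the 6 genes was not tested, and in bulk RNA fewer cells of a type and less RNA per cell cannot be told apart.

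**Figure D5:**
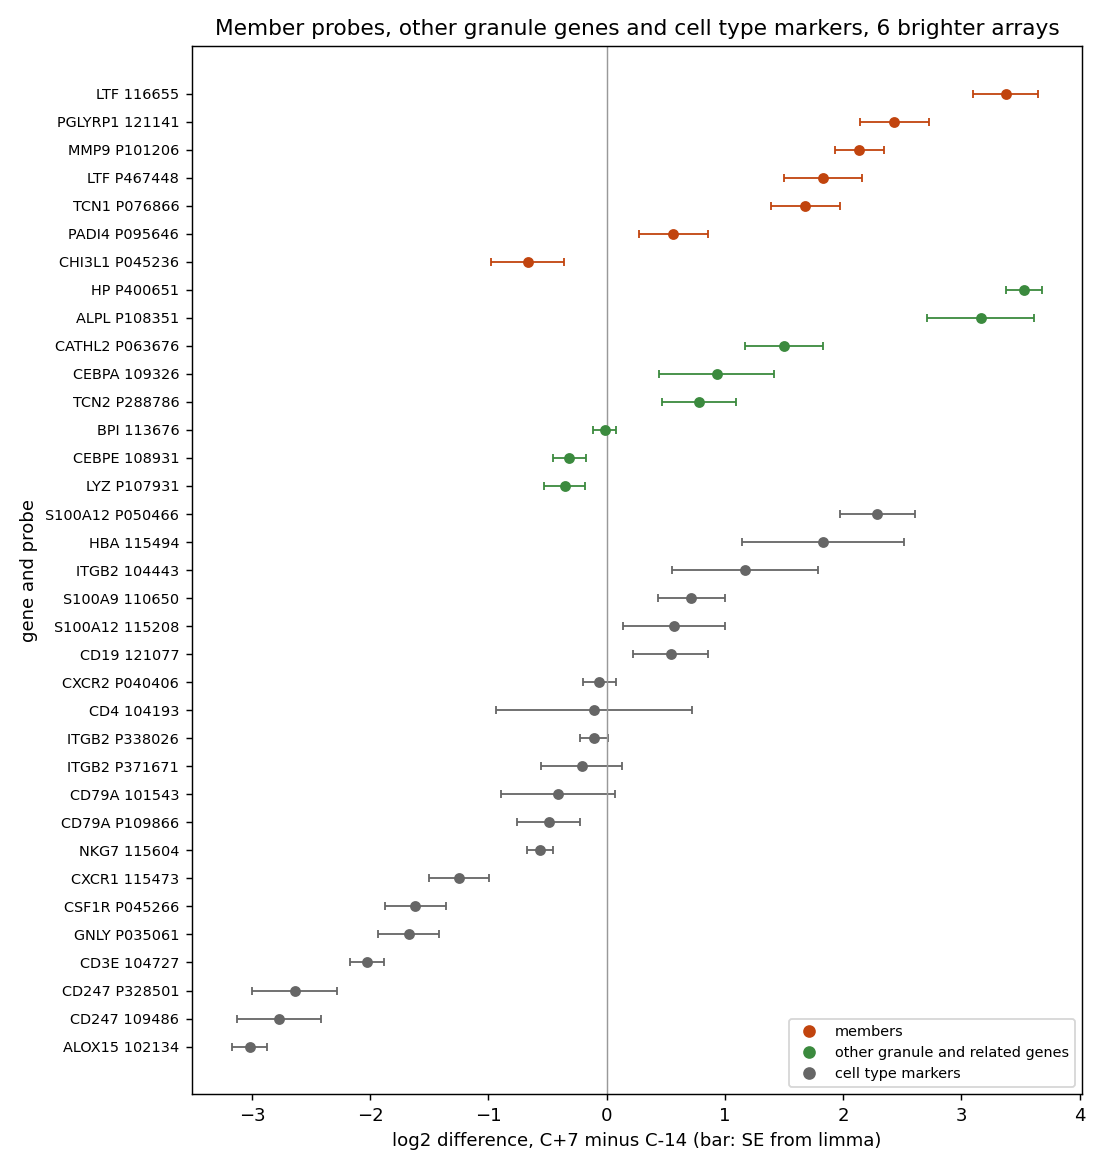
Log2 difference, C+7 minus C-14, with its limma standard error, of the tested probes of the 6 genes (top), of other granule and related genes (middle) and of cell type markers (bottom) on the 6 brighter arrays. LTF A_73_116655, HP and ALPL lie above 3, LTF A_73_P467448 lies at 1.83 and ALOX15 lies at -3.02, while LYZ and BPI lie near 0.

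The probes with the most similar profiles were sought among 1639 tested probes of a single gene, by the root mean square difference of the scaled log2 values over the 6 arrays after centring each profile. For LTF A_73_116655 these were ALPL at 0.235, HP at 0.349 and SHISA5 at 0.435, against a median of 1.79 over all 1639. For PGLYRP1 they were LOC511106 at 0.200, RNH1 at 0.349 and ABCA3 at 0.366. LOC511106 was also the nearest to MMP9, at 0.0755, followed by DEFB7, a beta-defensin gene, at 0.253 and SERPINB4 at 0.288. Between the genes themselves PGLYRP1 and MMP9 differed by 0.232, while PGLYRP1 differed by 0.548 from LTF A_73_116655 and by 0.310 from LTF A_73_P467448. CHI3L1 lay further off, at 2.07 from LTF A_73_116655, 1.62 from PGLYRP1, 1.46 from MMP9 and 1.26 from TCN1. The medians over all 1639 for those probes were 1.79, 1.35, 1.20 and 1.04. PADI4 differed from the other members by 0.662 to 1.41, beyond its own median of 0.631.

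The nearest to TCN1 were PRDX5 at 0.287, LANCL2 at 0.312 and NLGN3 at 0.345. CHI3L1 was nearest to STAB1 at 0.0476, ATP5F1A at 0.0568 and SF3A3 at 0.147, and PADI4 to ZNF444 at 0.113, VARS2 at 0.114 and VPS18 at 0.117. Profiles that share arrays at the floor are alike there by construction, and CHI3L1, STAB1, ATP5F1A and SF3A3 all lay at the floor on the 3 C+7 arrays. On the 3 C-14 arrays LTF, PGLYRP1, MMP9, ALPL, HP, LOC511106 and SERPINB4 all lay at the floor. In the bovine gene table no pair of the 6 genes lies on the same chromosome. PADI4 lies between PADI6 and PADI3, and CHI3L1 lies next to CHIT1, a chitinase gene.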

How the data were processed

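The authors deposited scanner output in which each spot has several intensity columns. It came from Agilent Feature Extraction, version 10.10.1.1 per the file headers and 9.1 per the submitters' processing notes. The authors' deposited series matrix holds log2 values whose centring is not stated. Column medians were -2.61 on C-14 replicate 3 and between -0.128 and 0.0289 on the other arrays, and its rows were matched to probes by order of first appearance (array differences correlated at 0.9998 or above). Symbols came from RefSeq through the transcript accession.

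The 1417 control spots of each array were left out, as were outlier-flagged spots (6 to 45) among the other 43803, and spots of a probe were averaged. Probes with a missing value were dropped, 21 of 2225 in the fit of 6 arrays and 5 of 475 in that of 8, none of a member. In the fit of 6 arrays 41 tested probes lay at the floor on all of them. The fit of 8 arrays used the processed intensity scaled over 115 probes. Fits used limma 3.58.1 in R 4.3.3, with no cow or slide term, and the fit was tested on simulated data. The alternatives were other scalings, floors, filters, signals, background corrections, moderation, array weights, a replicate block and omitted arrays. Normexp (offset 50) took the median spot signal. The members, lists and the choice of the 6 arrays were made with earlier results of these data known. Named are all probes of the members, genes of each list, whether called, not called or dark, and the 3 nearest profiles. Not every gene of each list is named. No pairing was used, because no label gives one. Deviations of same-numbered arrays correlated at 0.0574, -0.255 and 0.256, and those of differently numbered arrays at -0.448 to 0.286. With 3 arrays per time point these values cannot show whether cows were shared. Cows shared within a time point make p-values too small and cows shared across them too large. Spot number and brightness limit the precision. Sequences were not used here.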

Additional observations from a re-analysis of the deposited data

Results flagged for a closer look

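Of 42 groups of 4 arrays examined for a value far from the others, 2 stood out, where chance gives about 1 in 20. Both concern C-14 replicate 3. Its share of spots sitting at the lowest processed intensity was 0.00228%, where the other C-14 arrays had 73.4% to 80.4%. The surface correction there had a root mean square of 1.83, and the other C-14 arrays had 0. The values of the 6 genes on that array are given above on both scales.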

How the results depend on the processing

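On the 6 brighter arrays 113 of all probes were called. The count was 116 with the percentile taken over all probes, 97 with 1 probe per gene, 108 with each array's own floor and 160 with array weights. It was 1 without a filter, 72 with normexp, 5 with the authors' series matrix and 62 with a trended robust fit. With the processed intensity it was 12, with C-14 replicate 4 added 11, and over probes detected on all 6 arrays 50. Omitting 1 array gave 4 to 169. With the replicate block it was 0, and whether same-numbered arrays share a cow is not known. On 8 arrays, 0 probes were called in the fit as designed, 1 without a filter, 14 with array weights, and 0 to 1 when an array was omitted. HP and ALOX15 were called in 12 of the 17 and 12 of the 18 alternatives that tested them, and ALPL in 9 of 17. The difference of GNLY turned to 0.020 with normexp and that of CSF1R to 0.018 in the series matrix. On the 6 arrays, 13 alternatives were tried for each tested probe of the 6 genes. The log2 difference kept its sign in all 13 for LTF A_73_116655 and PGLYRP1. It did so in 12 for LTF A_73_P467448, MMP9, TCN1 and PADI4, and in 10 for CHI3L1. Since the genes were selected on this contrast, nothing is read from the kept signs. Adding C-14 replicate 4 raised the floor to -2.15, which left LTF A_73_116655 at 0.59, PGLYRP1 at 0.02, and LTF A_73_P467448, MMP9, TCN1, CHI3L1 and PADI4 at 0. The cause of the other changes was not tested. Signal over background limits the rest: 11 of the 18 probes could not be tested.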
